A study of Homo sapiens with 10 samples.

Results

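The genes described here are 39 genes that fold proteins in the endoplasmic reticulum (ER), remove the ones that fail to fold, or carry new chains into and out of it. They were listed by symbol and role, in 11 role groups, and the rule uses no measured value. The list was nonetheless chosen with earlier results of these data known. All 39 of them were found among the 25275 gene symbols of each of 2 deposited RNA-seq tables. The tables come from TMD8 and OCI-LY10, both established human lymphoma lines of the ABC subtype (activated B-cell-like) of diffuse large B-cell origin. Each RNA library came from cells carrying 1 shRNA that was switched on with doxycycline at 20 ng/ml for 2 days, the control shRNA included. The OCI-LY10 table holds 1 library for the control shRNA and 1 for each STAT3 shRNA, numbered 10 and 16, so no shRNA has a second library. The TMD8 table holds 3 libraries whose columns bear no names. By their labels, 1 of the 3 TMD8 RNA samples carries STAT3 shRNA 10, 1 carries shRNA 16 and 1 bears no STAT3 shRNA number. Which column is which is not given, so the columns are named by position, from the first to the third, with no shRNA assigned. TMD8 medians and ranges therefore pool libraries with and without a numbered STAT3 shRNA. The study's 4 STAT3 ChIP-seq samples are not analysed here.

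Secreted and membrane proteins enter the ER through the SEC61 channel, lose their signal peptide, receive sugars and disulfide bonds, and are held by chaperones until folded. Chains that do not fold are drawn back to the cytosol and degraded (ER-associated degradation, ERAD), and folded cargo leaves in COPII vesicles. When unfolded chains build up, the sensors IRE1, ATF6 and PERK start the unfolded protein response, which raises many of these genes through the transcription factors XBP1, ATF6 and ATF4. B-lineage cells that make antibody use this machinery heavily, and it expands further in plasma cells.

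The library labelled control in OCI-LY10 stood apart from the 2 STAT3 shRNA libraries of that line across the transcriptome. Small RNA genes aside, log2(FPKM + 1) over 11000 genes gave a Pearson's r of 0.845 between the control and either shRNA library, of 0.994 between the shRNA libraries, and of 0.935 to 0.96 between the control and the 3 TMD8 libraries. Between the shRNA libraries and the TMD8 libraries r was 0.796 to 0.815, the lowest of all pairs. FPKM counts fragments relative to gene length and library size. Genes are not replicates, the 2 tables may have been normalized separately, and r carries no p here. Whether a library was swapped or mislabelled was not tested, so every OCI-LY10 difference from the control is one between libraries as labelled. Without the control library, the single comparison left in OCI-LY10 is that between the 2 shRNAs. STAT3 itself was at 16.5, 11.1 and 10.6 FPKM in OCI-LY10, given here and below in the order control, shRNA 10, shRNA 16, and at 120.3, 24.3 and 22.5 FPKM in the TMD8 columns in order. In OCI-LY10 that was a log2 change of −0.56 (SE 0.10, limma adjusted p = 0.0465). B-cell markers (5 of 10 higher and 2 lower with the shRNAs) were present in all 6 libraries, with a summed level over 10 genes of 1249 FPKM in the OCI-LY10 control, 2626 and 2902 FPKM with the shRNAs and 1175 to 1338 FPKM in TMD8. The 10 T and NK cell markers summed to 0.56 to 1.56 FPKM, with CD3D, CD2 and TRAT1 listed at 0 throughout. The 10 myeloid and erythroid markers summed to 48.2 FPKM in the control, 2.52 and 1.57 with the shRNAs and 23.4 to 35.1 in TMD8. CD68 alone was at 46.6, 1.41 and 0.927 FPKM in OCI-LY10 and at 22.4, 22.1 and 33.4 FPKM in TMD8, with MPO, FCGR3A and HBB listed at 0 throughout. The 10 epithelial and stromal markers summed to 41.4 FPKM in the control, 11.02 and 12.1 with the shRNAs and 24.96 to 27.6 in TMD8. CDH1 carried that difference, at 32.6, 0.0102 and 0 FPKM, whereas EPCAM, at 0, 4.39 and 4.39 FPKM, and PECAM1, at 0.109, 5.43 and 6.05 FPKM, were above the control with both shRNAs. The part of these differences in the results was not tested. Absolute read depth is unknown. Relative depth was read from the commonest ratio between 2 libraries, over genes above 0 and under 0.1 FPKM in both. Relative to shRNA 10 it was 1.52 in the control and 0.73 with shRNA 16. Relative to the first TMD8 column it was 0.96 in the second and 0.86 in the third.

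Promoter sequences are shown first because the ER stress response acts on many of these genes through a few short elements. The ER stress response element (ERSE), bound by NF-Y and ATF6, reads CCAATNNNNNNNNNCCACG, and its shorter form ERSE-II reads ATTGGNCCACG. The unfolded protein response element (UPRE), bound by XBP1, was searched as TGACGTGG. Both strands were searched from 250 bases before to 50 bases after each gene's start in RefSeq promoters of build GRCh38.p14, where 34 of the 39 genes had an entry. DERL1, DERL3, PDIA3, SEC24D and SPCS1 had none. An exact ERSE lay in 6 of the 34 genes (17.6%), against 25 of 27305 gene symbols in the whole promoter table (0.0916%). ERSE-II lay in 3 of the 34 (8.82%) against 0.0696% of symbols, and UPRE in 3 (8.82%) against 0.927%. These elements were first described in promoters of ER genes of this kind, so the shares describe the list and test nothing. The matches follow, 5′ to 3′ on the strand that reads the element as spelled above, with its fixed bases in capitals.
HSPA5, ERSE, chr9:125241376-125241424, minus strand: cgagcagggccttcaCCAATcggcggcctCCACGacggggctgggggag
HSP90B1, ERSE, upstream copy, chr12:103930201-103930249, plus strand: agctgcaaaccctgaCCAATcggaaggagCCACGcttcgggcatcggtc
HSP90B1, ERSE, downstream copy, chr12:103930306-103930354, minus strand: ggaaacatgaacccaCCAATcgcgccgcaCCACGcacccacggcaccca
CALR, ERSE, chr19:12938369-12938417, minus strand: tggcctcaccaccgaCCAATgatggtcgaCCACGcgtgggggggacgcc
CANX, ERSE, chr5:179698763-179698811, plus strand: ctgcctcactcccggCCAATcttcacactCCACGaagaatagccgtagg
PDIA6, ERSE, chr2:10812838-10812886, minus strand: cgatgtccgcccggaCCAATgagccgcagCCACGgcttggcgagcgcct
CRELD2, ERSE, chr22:49918539-49918587, minus strand: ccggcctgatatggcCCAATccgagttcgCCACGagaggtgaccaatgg
HYOU1, ERSE-II, upstream copy, chr11:119057365-119057405, plus strand: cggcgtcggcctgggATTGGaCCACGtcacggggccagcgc
HYOU1, ERSE-II, downstream copy, chr11:119057259-119057299, plus strand: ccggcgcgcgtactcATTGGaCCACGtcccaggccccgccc
SDF2L1, ERSE-II, chr22:21642099-21642139, minus strand: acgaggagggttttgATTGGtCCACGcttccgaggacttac
HERPUD1, ERSE-II, chr16:56932010-56932050, plus strand: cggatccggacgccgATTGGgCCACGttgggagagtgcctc
SSR3, UPRE, chr3:156554144-156554181, plus strand: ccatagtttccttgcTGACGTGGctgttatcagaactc
SSR4, UPRE, chrX:153794524-153794561, minus strand: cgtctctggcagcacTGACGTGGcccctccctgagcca

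All of these matches lay upstream of the start, with their first base between position −225 and position −41 relative to it. HSP90B1 and HYOU1 each held the element 2 times. HYOU1 also held a UPRE match whose letters overlap its upstream ERSE-II on the opposite strand, so these are not separate elements. A match describes letters in this window only and shows no binding.

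**Figure D1:**
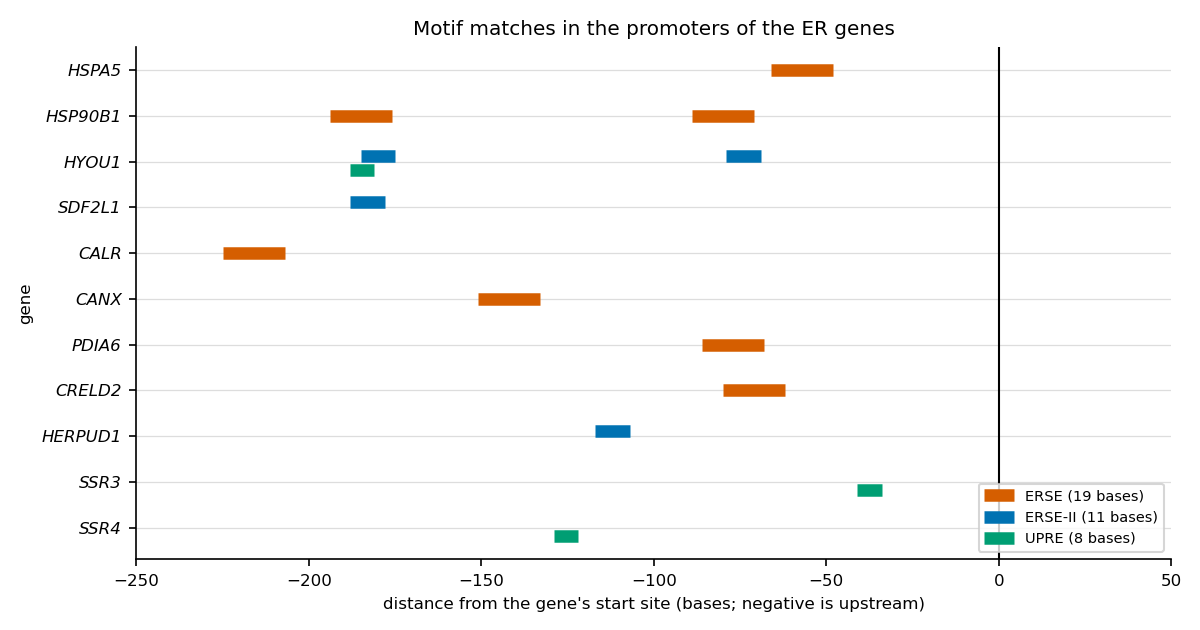
Position of each exact ERSE, ERSE-II and UPRE match in the promoter window, in bases from the gene's start site (x axis), for the 11 ER genes (y axis) that held any. Bars span the element, and all lie upstream of the start, with 2 ERSE bars in HSP90B1 and 2 ERSE-II bars in HYOU1.

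In OCI-LY10, more of the ER genes were higher than lower in the 2 STAT3 shRNA libraries, compared with the control library. Of the 39, 13 passed as higher and 3 as lower (limma, adjusted p under 0.05), while 23 were not called. Of the 11162 genes tested, each averaging 1 FPKM or more, 20.3% were higher and 17.4% lower, so the share higher among the ER genes (33.3%) was above that background and the share lower (7.69%) below it. Because the list was chosen with earlier results of these data known, these shares describe it and test nothing. The median log2 change was 0.50 over the 39 genes and 0.06 over all tested genes. At least 1.5-fold on the FPKM + 1 scale with both shRNAs, 14 genes were higher and 3 lower, against 20.1% and 17.2% of tested genes. Their summed level was 2950.3 FPKM in the control, 3795 FPKM in the shRNA 10 library and 3632 FPKM in the shRNA 16 library, on the deposited scale. In bulk RNA, fewer cells of a type and less RNA per cell cannot be told apart.

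The number of calls moved with a pair of settings. Without the filter on low values, 6 of the 13 stayed called higher (HYOU1, P4HB, EDEM1, DERL3, SSR2 and SSR4) and 1 of the 3 lower (SEL1L), against 7.18% and 11.6% of 18098 genes tested. Small RNA genes held 49.0% of summed FPKM in the OCI-LY10 control and 57.8% and 58.1% with shRNA 10 and 16. In the TMD8 columns they held 22.5%, 28.7% and 43.3%. With small RNA genes left out and the rest rescaled, 23 were higher and 3 lower, against 32.5% and 17.9% of tested genes. The share of all calls that were higher went from 53.8% to 64.4%. The ER genes gained were HSP90B1, SDF2L1, CANX, PDIA6, DNAJC3, ERN1, DERL1, SSR3, SPCS1 and SPCS3. That rescaling shifted the median of all genes by 0.13 on the log2 scale, and the ER genes stood 0.45 above it, against 0.44 as deposited.

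**Figure D2:**
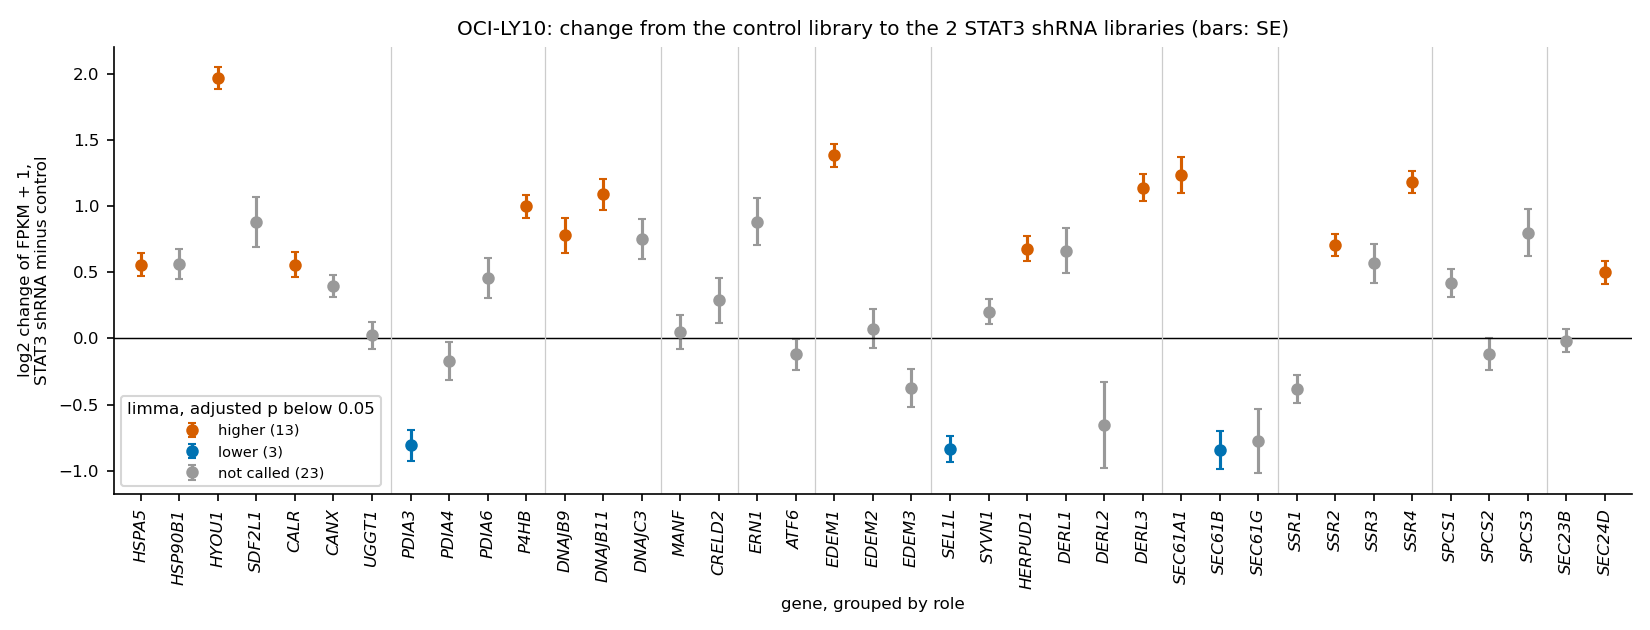
Log2 change of FPKM + 1 from the control library to the mean of the 2 STAT3 shRNA libraries in OCI-LY10 (y axis) for the 39 ER genes by role (x axis), with bars for the standard error from limma. Orange points were called higher (13), blue lower (3) and grey not called (23), and HYOU1 has the largest change, at 1.97.

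Among the chaperones and lectins, 3 of 7 were higher with the STAT3 shRNAs and 0 lower. HYOU1, a large chaperone of the HSP70 class that swaps nucleotide on BiP, was at 23.1, 93.1 and 93.3 FPKM. The 2 shRNA values lay within 1 FPKM of each other, a 4.04-fold level over the control and a log2 change of 1.97 (SE 0.08, limma adjusted p = 0.00879). HSPA5, which encodes BiP, the main HSP70 of the ER, was at 102, 153 and 148 FPKM. Its log2 change was 0.56 (SE 0.09, limma adjusted p = 0.0365), and the ratio of HYOU1 to HSPA5 went from 0.227 in the control to 0.608 and 0.631. CALR, the soluble lectin calreticulin, stood at 446, 650.0 and 664 FPKM, the highest level of any of the 39 genes in the shRNA libraries. Its log2 change was 0.56 (SE 0.09, limma adjusted p = 0.0403), and the call was lost with median-of-ratios scaling (limma adjusted p = 0.0515). The calls of HSPA5 (0.0548) and CALR (0.0612) were also lost without the filter on low values.

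The other members of that group were not called. HSP90B1, the ER member of the HSP90 class, was at 181, 281 and 256 FPKM (adjusted p = 0.0515) and CANX, the membrane lectin calnexin, at 163, 214 and 216 FPKM (0.0582). SDF2L1, a partner of ER J proteins, was at 18.9, 39.9 and 31.9 FPKM (0.0583). In these 3 genes both shRNA values were above the control value, and each passed with small RNA genes left out. UGGT1, the glucosyltransferase that marks unfolded glycoproteins for another round of folding, was at 10.5, 10.5 and 10.9 FPKM and was nearly level over the 3 libraries.

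Of the 4 disulfide isomerases, which form and rearrange disulfide bonds, 1 was higher and 1 lower. P4HB, the archetype of the family, was at 142, 283 and 286 FPKM, a 2.01-fold level over the control and a log2 change of 1.00 (SE 0.08, limma adjusted p = 0.0174). PDIA3, which works with calnexin and calreticulin on glycoproteins, was lower, at 91.4, 48.9 and 54.7 FPKM and a log2 change of −0.81 (SE 0.12, limma adjusted p = 0.0333). The control library was the lowest of the 3 for P4HB and the highest for PDIA3, so the ratio of P4HB to PDIA3 was 1.55 in the control and 5.79 and 5.23 with the shRNAs. PDIA6 at 129, 193 and 163 FPKM and PDIA4 at 65.3, 53.6 and 62.6 FPKM were not called (adjusted p = 0.119 and 0.415). PDIA3 has 2 named pseudogenes in RefSeq, and its value is uncertain where reads were shared. Its call was lost without the filter on low values (0.0734).

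Of the 3 J proteins, which deliver clients to BiP, 2 were higher and 0 lower. DNAJB11 was at 30.96, 70.9 and 63.6 FPKM, a log2 change of 1.09 (SE 0.12, limma adjusted p = 0.0226). DNAJB9, a J protein that also restrains IRE1, was low in every library, at 2.94, 6.17 and 5.39 FPKM, with a log2 change of 0.78 (SE 0.13, limma adjusted p = 0.0419). Neither stayed called once low genes were let into the test (0.0553 and 0.0907). DNAJC3, which also acts on PERK signalling, was at 6.26, 12.2 and 10.4 FPKM and missed the threshold (0.0522). DNAJC3 did pass when genes under a mean of 5 FPKM were left out (0.0490), and with small RNA genes left out.

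The secreted factors and the sensors gave no calls. MANF, a small secreted protein raised by ER stress, was at 59.8, 57.96 and 66.1 FPKM, and CRELD2, another such protein, at 28.5, 31.8 and 38.6 FPKM (adjusted p = 0.778 and 0.269). For MANF the control value lay between the 2 shRNA values. ERN1, the gene of the sensor IRE1, was the lowest of the 39 genes in OCI-LY10, at 0.952, 2.25 and 2.98 FPKM, a 2.75-fold level over the control (adjusted p = 0.0535). It passed under quantile normalization (0.0494) and with small RNA genes left out. ERN1 is the 1 gene of the 39 that met the filter on low values through the shRNA libraries alone. ATF6, the sensor that is cut in the Golgi to free a transcription factor, was at 7.89, 6.86 and 7.52 FPKM (0.474).

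In ERAD, 1 of the 3 EDEM genes was higher and 0 were lower (limma). EDEM1, which trims mannose from glycoproteins bound for degradation, was at 17.5, 46.7 and 47.7 FPKM, a 2.70-fold level over the control and a log2 change of 1.39 (SE 0.09, limma adjusted p = 0.0129). Its relatives EDEM2, at 9.91, 9.67 and 11.3 FPKM, and EDEM3, at 5.80, 4.61 and 3.90 FPKM, were not called (adjusted p = 0.718 and 0.146). The ratio of EDEM1 to EDEM3 was 3.01 in the control library but 10.1 and 12.2 with the shRNAs. Whether the change of EDEM1 differs from that of its relatives was not tested.

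The membrane machinery of ERAD, built around the ubiquitin ligase SYVN1 (HRD1) and its adaptor SEL1L, had 2 of 6 genes higher and 1 lower. SEL1L was lower with both shRNAs, at 17.04, 9.30 and 8.92 FPKM and a log2 change of −0.84 (SE 0.10, limma adjusted p = 0.0260), while SYVN1 was not called, at 52.5, 58.9 and 62.3 FPKM (adjusted p = 0.194). HERPUD1, which recruits partners to that ligase and is strongly raised by ER stress, was at 63.9, 106 and 99.6 FPKM, a log2 change of 0.68 (SE 0.10, limma adjusted p = 0.0319). Its call was lost without the filter on low values (0.0607). The derlins form the path out of the membrane. DERL3 was low but higher with the shRNAs, at 2.59, 6.89 and 6.97 FPKM and a log2 change of 1.14 (SE 0.10, limma adjusted p = 0.0179). DERL1, at 12.5, 22.4 and 18.4 FPKM, and DERL2, at 20.5, 15.8 and 10.2 FPKM, lay in opposite directions from the control and were not called (0.0788 and 0.219).

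Of the 3 genes of the SEC61 channel, 1 was higher and 1 lower. The pore subunit gene SEC61A1 was at 62.8, 160.3 and 139.6 FPKM, a log2 change of 1.24 (SE 0.13, limma adjusted p = 0.0226). SEC61B was the most abundant of the 39 genes in the control library and was lower with the shRNAs, at 592, 355 and 306 FPKM and a log2 change of −0.84 (SE 0.14, limma adjusted p = 0.0424). The small subunit gene SEC61G was at 147, 99.1 and 73.3 FPKM, below the control with both shRNAs, but was not called (adjusted p = 0.107). In per-length units the ratio of SEC61A1 to SEC61B was 0.106 in the control library but 0.451 and 0.456 with the shRNAs. Neither SEC61 call held once low genes were let into the test (0.0604 for SEC61A1 and 0.0940 for SEC61B).

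The TRAP complex, which sits beside the channel and helps some signal peptides to open it, had 2 of 4 genes higher and 0 lower. SSR4 was at 88.1, 200.1 and 202 FPKM, a log2 change of 1.18 (SE 0.08, limma adjusted p = 0.0144), and SSR2 at 97.4, 159 and 160.3 FPKM, a log2 change of 0.71 (SE 0.08, limma adjusted p = 0.0251). In both genes the 2 shRNA values differed by far less than either did from the control. SSR3 was at 36.1, 58.6 and 49.9 FPKM and SSR1 at 12.8, 9.94 and 9.26 FPKM, on opposite sides of the control, and neither was called (0.0798 and 0.0930). The ratio of SSR4 to SSR1 was 6.88 in the control library but 20.1 and 21.8 with the shRNAs. The gene span of SSR4 overlaps that of IDH3G in RefSeq, and SSR1 and SSR4 have named pseudogenes, so reads could have been shared.

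Of the 3 genes listed here for the signal peptidase complex, which cuts the signal peptide, 0 were called in either direction (limma). SEC11A and SEC11C were placed among the other entry genes. SPCS3 was at 19.8, 39.2 and 31.7 FPKM, SPCS1 at 81.6, 115 and 105 FPKM and SPCS2 at 41.5, 40.3 and 36.1 FPKM (adjusted p = 0.0645, 0.0785 and 0.483). SPCS3 and SPCS1 passed with small RNA genes left out. Values of SPCS2 are uncertain, since RefSeq names 4 pseudogenes of it. Of the COPII coat, SEC24D, a cargo-binding subunit, was at 20.5, 29.2 and 29.7 FPKM, a log2 change of 0.50 (SE 0.09, limma adjusted p = 0.0443). That call was lost under 3 settings, without the filter on low values (0.0548), with median-of-ratios scaling (0.0571) and with quantile normalization (0.0593). Its partner SEC23B was level, at 40.3, 39.7 and 39.9 FPKM (0.892).

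**Figure D3:**
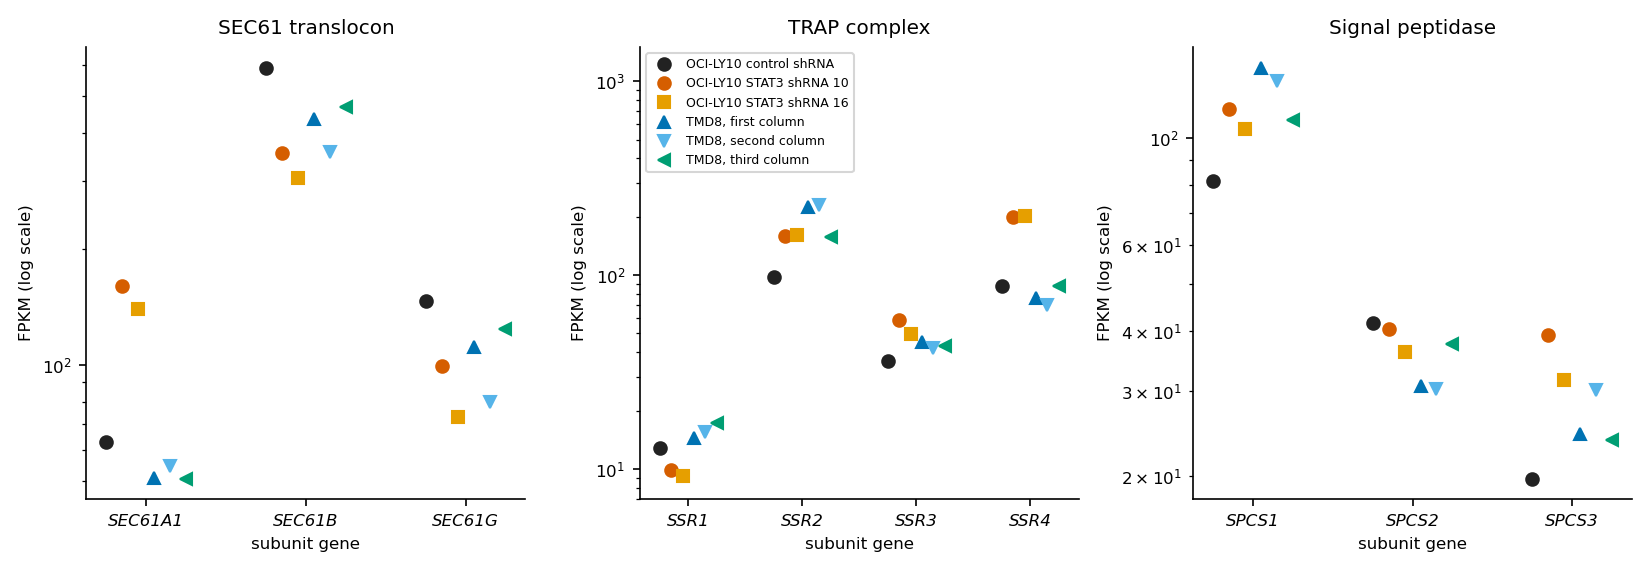
FPKM on a log axis (y) of the subunit genes (x) of the SEC61 channel, the TRAP complex and the signal peptidase in each of the 6 libraries. With the OCI-LY10 shRNAs (orange and yellow), SEC61A1 lies above the control (black) at 160.3 and 139.6 FPKM, and SEC61B below it at 355 and 306 FPKM.

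The promoter matches and the calls overlapped in part. Of the 9 genes with an ERSE or ERSE-II, 4 were higher (HSPA5, CALR, HYOU1 and HERPUD1) and 0 lower by the same limma test, and their median log2 change was 0.56, from 0.29 to 1.97. Of the 25 with a promoter entry and neither element, 7 were higher and 2 lower, with a median of 0.07. EDEM1, SEC61A1, SSR4, P4HB and DNAJB11 were among those higher without an exact ERSE or ERSE-II in the window. The difference between these sets was not tested.

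Between the 2 STAT3 shRNA libraries, with 1 library each, there is no test. At least 1.5-fold on the FPKM + 1 scale, 1 of the 39 differed (2.56%), a share near the 3.62% of all tested genes. That gene was DERL2, at 15.8 FPKM with shRNA 10 and 10.2 with shRNA 16, and it fell under that fold with median-of-ratios scaling and with a pseudocount of 5 FPKM. The depth of the shRNA 16 library was the lower of the pair.

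Other genes of the pathway, from lists set by function, were read against the same background of 20.3% higher and 17.4% lower. These lists too were chosen with earlier results of these data known. Among 17 tested regulators of the unfolded protein response, 4 were higher and 5 lower. XBP1, spliced by IRE1 into an active factor, was at 20.7, 77.5 and 67.4 FPKM, and MBTPS1, the Golgi protease that makes the first cut in ATF6, at 7.96, 41.5 and 41.04 FPKM. Lower were PPP1R15A, the stress-induced subunit that reverses PERK signalling, at 66.1, 9.16 and 12.04 FPKM, and the apoptosis gene BAK1, at 42.5, 12.8 and 12.8 FPKM. DDIT3, which encodes CHOP, was at 10.2, 13.01 and 14.8 FPKM and ATF4 at 215, 359 and 274 FPKM, neither of them called (adjusted p = 0.112 and 0.162).

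Among 20 other ER folding genes, 8 were higher and 2 lower. ERP29 was at 127, 251 and 249 FPKM and the isomerase gene PDIA5 at 8.53, 16.1 and 16.9 FPKM, while the oxidase gene ERO1B (ERO1LB in the table) was lower, at 2.15, 0.806 and 0.598 FPKM, as was DNAJC1, at 8.40, 3.82 and 3.55 FPKM. Of 18 other ERAD genes, 3 were higher and 4 lower. UBE2G2, a ubiquitin-conjugating enzyme, was at 14.1, 38.6 and 32.9 FPKM and the lectin gene ERLEC1 at 11.9, 18.3 and 19.9 FPKM. UBE2J1, the conjugating enzyme that serves SYVN1, was at 13.6, 0.319 and 0.171 FPKM in OCI-LY10 and at 17.6, 17.7 and 18.4 FPKM in TMD8, so it was under 1 FPKM in the 2 shRNA libraries and above 10 FPKM in the other 4. FAM8A1, a partner of SYVN1, was also lower, at 2.78, 0.975 and 0.965 FPKM. UBE2J1 and FAM8A1, like ERO1LB, passed the filter on low values only through the control library. Without these genes, 3 of 16 other ERAD genes were higher and 2 lower, and 8 of 19 other folding genes were higher and 1 lower.

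Of 12 genes of the oligosaccharyltransferase, which attaches N-glycans, 4 were higher and 0 lower, among them RPN1 at 68.4, 138 and 146 FPKM, RPN2 at 68.7, 120.4 and 117 FPKM and DDOST at 88.8, 137 and 142 FPKM. The other called gene, TUSC3, was at 0.00850, 3.38 and 3.65 FPKM and at or near 0 in TMD8. TUSC3 passed the filter on low values only through the shRNA libraries, and 3 of the other 11 genes were higher. Of 15 other entry genes, 6 were higher and 1 lower. TRAM2 was at 3.81, 12.4 and 12.03 FPKM and SEC63, which couples the channel to BiP, at 6.77, 18.3 and 18.2 FPKM. SRP14 was at 250.4, 369.6 and 363 FPKM and SRP72 was lower, at 50.8, 26.7 and 25.8 FPKM, though both belong to the signal recognition particle.

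Of 26 tested genes of ER to Golgi traffic, 6 were higher and 2 lower. STX5 was at 9.80, 23.4 and 23.04 FPKM and SEC16B at 0.0162, 2.19 and 2.01 FPKM, with SEC16B listed at 0 in all 3 TMD8 libraries. SEC16B and SEC31B passed the filter only through the shRNA libraries, and without them 4 of 24 were higher and 2 lower. KDELR1, a receptor that returns chaperones with a KDEL tail to the ER, was lower, at 118, 29.4 and 32.9 FPKM, as was the cargo receptor gene TMED10, at 43.8, 24.6 and 21.9 FPKM. Of 7 tested plasma cell markers, 3 were higher and 3 lower. POU2AF1 was at 2.44, 197 and 181 FPKM and TNFRSF17 at 1.57, 39.8 and 35.01 FPKM, whereas PRDM1 was at 9.39, 0.685 and 0.585 FPKM and IRF4 at 411, 73.8 and 80.8 FPKM. PRDM1 and SDC1 passed the filter only through the control library, and of the other 5 markers 3 were higher and 1 lower.

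In TMD8, the highest value was at least 1.5-fold over the lowest, on the FPKM + 1 scale, in 4 of the 39 genes (10.3%), a share near the 11.5% of 10888 genes averaging 1 FPKM or more in that table. Those were SDF2L1 at 18.9, 14.2 and 10.99 FPKM, DERL3 at 4.40, 4.23 and 2.37 FPKM, SEC61G at 111, 80.1 and 124 FPKM and SEC24D at 14.1, 17.8 and 22.1 FPKM by column. No column was the high one in all 4. The third was lowest for SDF2L1 and DERL3 and highest for SEC61G and SEC24D. With a pseudocount of 5 FPKM, 1 of the 39 was past that fold. Since the columns bear no shRNA, no comparison between shRNAs was made in TMD8.

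Values of the main folding genes in TMD8 follow by column. HSPA5 was at 36.4, 42.2 and 45.4 FPKM, HYOU1 at 13.3, 13.3 and 15.6 FPKM and CALR at 186, 198 and 244 FPKM. P4HB was at 178, 164 and 143 FPKM, PDIA3 at 47.3, 48.6 and 67.2 FPKM and HSP90B1 at 188, 178 and 182 FPKM. The highest column was 1.06-fold over the lowest for HSP90B1 and 1.42-fold for PDIA3, with the other 4 genes between. HERPUD1, at 144, 150.1 and 113 FPKM, SYVN1, at 92.6, 94.03 and 65.7 FPKM, and SSR2, at 224, 230.3 and 157 FPKM, had their lowest value in the third column. XBP1 did too, at 50.04, 47.8 and 33.7 FPKM, as did EDEM1, at 76.2, 61.7 and 57.3 FPKM.

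The other ER genes gave these TMD8 values by column. Of the folding genes, CANX was at 128, 123 and 147 FPKM, UGGT1 at 6.52, 6.49 and 7.37 FPKM, PDIA4 at 54.98, 47.5 and 58.6 FPKM and PDIA6 at 147, 138 and 154 FPKM. The J proteins DNAJB9, DNAJB11 and DNAJC3 were at 4.71, 5.07 and 3.63 FPKM, at 34.3, 29.2 and 34.9 FPKM and at 7.64, 10.1 and 7.78 FPKM. Their order of levels, DNAJB11 above DNAJC3 above DNAJB9, was the same in all 6 libraries. CRELD2 was at 30.1, 27.3 and 22.8 FPKM and ATF6 at 9.21, 11.1 and 11.8 FPKM. Of the ERAD genes, EDEM2 was at 17.1, 16.7 and 15.01 FPKM, EDEM3 at 6.90, 8.79 and 8.84 FPKM, DERL1 at 18.8, 19.6 and 15.2 FPKM and DERL2 at 19.5, 21.7 and 19.4 FPKM. EDEM1 stood above EDEM2, and EDEM2 above EDEM3, in all 6 libraries. At the channel, SEC61A1 was at 50.7, 54.5 and 50.6 FPKM and SEC61B at 434, 356 and 466 FPKM, and SSR1, SSR3 and SSR4 of the TRAP complex were at 14.4, 15.6 and 17.3 FPKM, at 44.96, 42.1 and 43.04 FPKM and at 76.6, 70.03 and 87.9 FPKM. SEC61B was the most abundant of the 39 genes in each TMD8 column, as in the OCI-LY10 control. SPCS1, SPCS2 and SPCS3 were at 139.9, 131 and 109 FPKM, at 30.8, 30.3 and 37.5 FPKM and at 24.5, 30.2 and 23.8 FPKM, and SEC23B at 35.7, 36.7 and 35.7 FPKM.

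Levels in the 2 tables can be set side by side only with care, because the tables may have been normalized separately, and no test was made across them. All 3 OCI-LY10 values lay above all 3 TMD8 values in 9 of the 39 genes, against 20.9% of 11340 genes averaging 1 FPKM or more over all 6 libraries. All 3 lay below in 8, against 26.9%. Neither share stands far from its background. The 9 were the chaperone genes HSPA5, HYOU1, CALR, CANX and UGGT1 with MANF, SEC61A1, SSR4 and SEC23B. For MANF the OCI-LY10 values were 59.8, 57.96 and 66.1 FPKM and the TMD8 values 27.8, 28.6 and 42.03 FPKM. The 8 were the ERAD genes EDEM1, EDEM2, EDEM3, SEL1L, SYVN1 and HERPUD1 with ATF6 and SSR1. SEL1L, for instance, was at 26.96, 30.6 and 27.6 FPKM in TMD8 against 17.04, 9.30 and 8.92 FPKM in OCI-LY10. So 5 of 7 chaperone and lectin genes stood wholly higher in OCI-LY10, while the 4 disulfide isomerases and the 3 J proteins all overlapped between the tables. Of the 9 ERAD genes among the 39, 6 stood wholly higher in TMD8. Folding genes outside the 39 lay on either side. PDIA5 was at 8.53, 16.1 and 16.9 FPKM in OCI-LY10 and 8.14, 7.25 and 7.92 FPKM in TMD8. DNAJC1 was at 8.40, 3.82 and 3.55 FPKM in OCI-LY10 and 14.3, 13.8 and 12.6 FPKM in TMD8. ERAD genes outside the 39 went both ways. OS9 was at 48.3, 58.0 and 69.1 FPKM in OCI-LY10 and 43.7, 44.5 and 46.4 FPKM in TMD8. HERPUD2 was at 4.96, 3.18 and 3.67 FPKM in OCI-LY10 and 14.2, 14.8 and 11.5 FPKM in TMD8. The grouping by role was seen in the values of the 39 genes and was not tested.

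**Figure D4:**
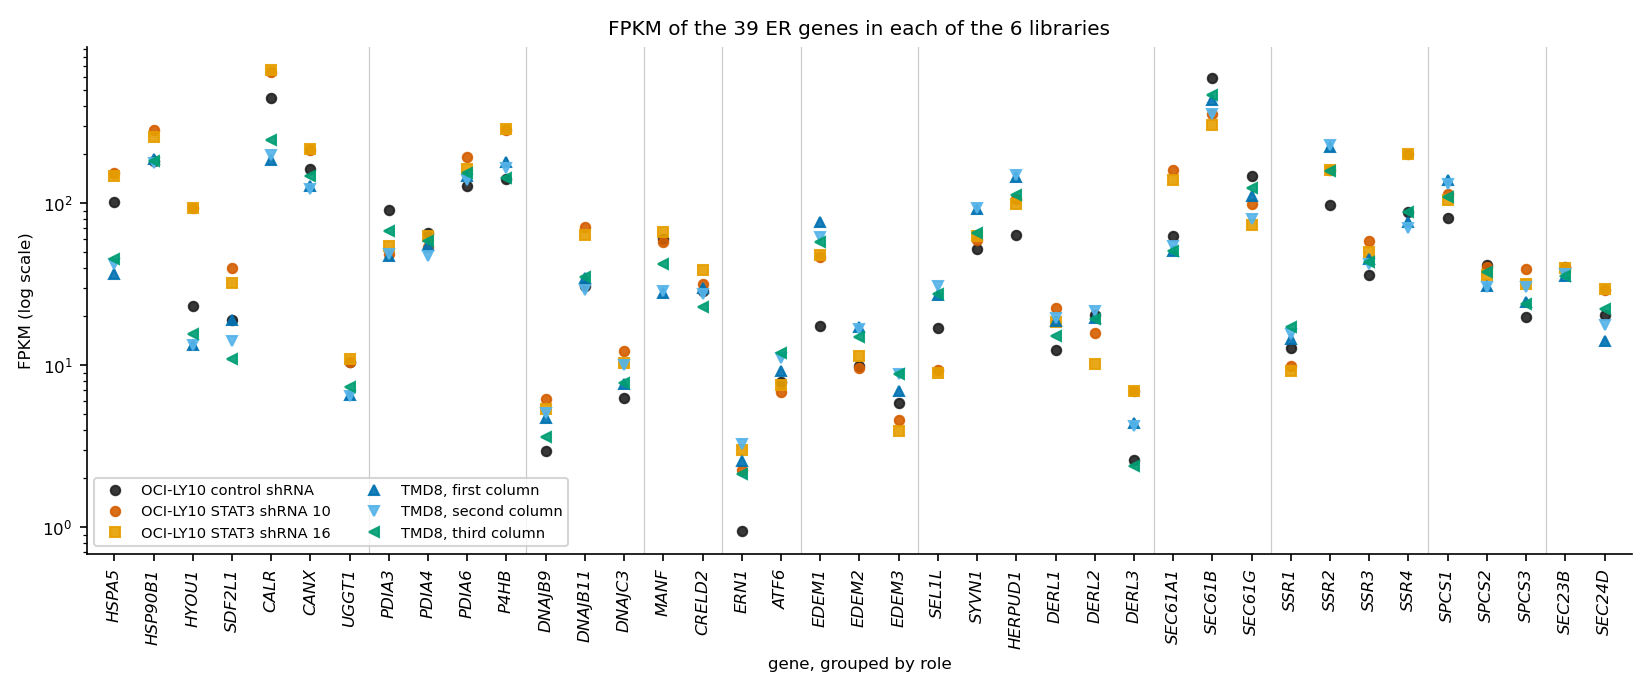
FPKM on a log axis (y) of the 39 ER genes by role (x) in the 3 OCI-LY10 libraries and the 3 TMD8 columns, 1 point per library. CALR and HSPA5 lie higher in all OCI-LY10 libraries than in TMD8 and EDEM1 lies lower, while SEC23B is nearly level over all 6.

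The value of the OCI-LY10 control library lay nearer, on the log2 scale, to the TMD8 median than to the mean of the 2 OCI-LY10 shRNA libraries in 23 of the 39 genes (59.0%), against 59.5% of all genes compared. HYOU1, P4HB, DNAJB11, SEC61A1 and SSR4 were among these, with control values of 23.1, 142, 30.96, 62.8 and 88.1 FPKM beside TMD8 medians of 13.3, 164, 34.3, 50.7 and 76.6 FPKM. In these 5 genes the 2 shRNA libraries stood above the control and above all TMD8 columns. In a count added after the values were seen, the control was the lowest of all 6 libraries in 13 genes, against 20.0% of genes, and the highest in 6, against 14.6%. The 13 included EDEM1, HERPUD1, SSR2, SPCS1 and ERN1, where the TMD8 columns stood beside or above the shRNA libraries. EDEM1 was at 17.5, 46.7 and 47.7 FPKM in OCI-LY10 and 76.2, 61.7 and 57.3 FPKM in TMD8, and ERN1 was at 2.55, 3.25 and 2.13 FPKM in TMD8.

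Ratios between subunit genes of a complex, or between related genes, were set side by side for TMD8 and OCI-LY10. Each ratio is a description within 1 library, which scaling between tables does not touch. The ratio of SEC61A1 to SEC61B was 0.117, 0.153 and 0.109 in the TMD8 columns, close to the 0.106 of the OCI-LY10 control and below the shRNA libraries. For SSR4 to SSR1 it was 5.32, 4.498 and 5.09, again nearer to the control (6.88). Other ratios within complexes went both ways. SSR3 to SSR1, at 3.12, 2.70 and 2.49, lay near the control (2.82). SSR2 to SSR1 was 15.5, 14.8 and 9.11, with the first 2 columns nearer to the shRNA libraries (16.0 and 17.3) than to the control (7.60). SPCS3 to SPCS2 was 0.794, 0.995 and 0.634, above the control (0.477), beside 0.972 and 0.878 with the shRNAs. For EDEM1 to EDEM3 it was 11.05, 7.02 and 6.48, above the control (3.01), with the first column between the shRNA libraries (10.1 and 12.2). For EDEM1 to EDEM2 it was 4.46, 3.69 and 3.82, nearer to the shRNA libraries (4.83 and 4.21) than to the control (1.76). For P4HB to PDIA3 it was 3.77, 3.38 and 2.12, between the control (1.55) and the shRNA libraries. CALR to CANX, the soluble to the membrane lectin, was 1.45 to 1.66 in TMD8 and 2.74, 3.04 and 3.08 in OCI-LY10. This ratio was thus higher in all 3 OCI-LY10 libraries than in any TMD8 column, as was SSR4 to SSR1.

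The 39 genes covered a wide range of levels. In all 6 libraries, 6 of them stood above 100 FPKM (HSP90B1, CALR, CANX, PDIA6, P4HB and SEC61B) and 4 below 10 FPKM (DNAJB9, ERN1, EDEM3 and DERL3). Levels over the 39 genes were similar in all libraries, with Pearson's r of log2(FPKM + 1) from 0.883 to 0.995 between pairs of libraries. Over these genes the OCI-LY10 control had an r of 0.937 and 0.933 with shRNA 10 and 16. With the TMD8 columns its r was 0.925, 0.924 and 0.961. Between the shRNA libraries and the TMD8 columns r was 0.883 to 0.901. These values are across genes and carry no p. In RefSeq, 6 of the 39 have a named pseudogene and 20 overlap the span of another gene, and any sharing of their reads is not known.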

How the data were processed

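RNA-seq was analysed as FPKM values deposited by the authors, 1 value per gene and library, in 1 table per cell line. TopHat, Bowtie2 and the build hg19 are named without role or version, per the submitters' processing notes. The sources used here do not name the FPKM tool or its annotation, nor say how libraries were scaled or whether strand was used. OCI-LY10 columns were matched to samples by name. The TMD8 table has no header. It was tied to the 3 TMD8 RNA samples because their description label names it, and its columns are given by position. Rows of repeated symbols were summed. Genes averaging 1 FPKM or more in OCI-LY10 were tested with limma 3.58.1 in R 4.3.3 on log2(FPKM + 1), which understates changes of low genes (empirical Bayes with a trend, two-sided, Benjamini-Hochberg adjustment over all 11162 genes, threshold 0.05). The test set both STAT3 shRNA libraries against the single control, which leaves 1 residual degree of freedom. Its p-values measure only the spread between the 2 shRNA libraries. Each gene's own spread was combined with a trend over all tested genes (1.64 prior degrees of freedom). The spread between these libraries may be technical, and the same spread is assumed for the control. The 39 genes and the other lists were chosen with earlier results of these data known. All 39 are reported, and from each other list up to 4 called genes, the 2 highest and 2 lowest changes. DDIT3, ATF4, OS9 and HERPUD2 were added after their values were seen. Alternatives were other pseudocounts, filters and scalings, and leaving out either shRNA library.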

Additional observations from a re-analysis of the deposited data

How the results depend on the processing

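Counts and directions for the ER genes were recomputed under 7 alternative settings and without either shRNA library. The numbers called higher and lower in OCI-LY10, 13 and 3, became 6 and 1 without the filter on low values, where more genes enter the adjustment, and 23 and 3 with small RNA genes left out and the rest rescaled. Under the other 5 settings 11 to 13 were higher and 3 lower. The median log2 change of the ER genes was 0.43 to 0.64 under the 7 settings, and 0.46 and 0.54 without shRNA 10 and without shRNA 16. The number at least 1.5-fold lower with the shRNAs, 3 with both, ranged from 3 to 5 when either library was left out, with 5 without shRNA 10. DERL2, the 1 gene at least 1.5-fold apart between the 2 shRNAs, left 0 with a pseudocount of 5 FPKM and with median-of-ratios scaling. In TMD8, the 4 genes at least 1.5-fold apart became 1 with a pseudocount of 5 FPKM. Changes of 6 ER genes crossed 0, none of them called under any setting: UGGT1 with median-of-ratios scaling (−0.0475) and quantile normalization (−0.0201), MANF likewise (−0.0262 and −0.0483), and ATF6 (0.0055), SPCS2 (0.0203) and SEC23B (0.122) with small RNA genes left out. Without shRNA 16, MANF (−0.0434) and EDEM2 (−0.0313) crossed 0 too. The cause was not tested. Absolute depth is unknown, so no counting error can be given.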
